A study of Mus musculus with 14 samples.

Results

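The 10 genes Cd44, Ly6a, Ly6c2, S100a4, S100a6, S100a10, Anxa2, Lgals1, Vim and Crip1, which antigen-experienced T cells are known to carry at higher levels than naive T cells, were followed in spleen T cells of leukemic mice. They were taken by symbol from the 24091 genes of the count table, and all 10 were present and passed the filter on low counts, as did 12248 genes in all. The T cells came from Mir142+/+BCR-ABL mice, a model of chronic phase chronic myeloid leukemia (CP CML, n = 8), and from Mir142−/−BCR-ABL mice, a model of blast crisis (BC CML, n = 6). Per the study's methods, all mice of both groups carried the SCLtTA and BCR-ABL transgenes on one C57Bl/6j CD45.2 background, which was not checked here, and had BCR-ABL switched on for 3 weeks by withdrawal of tetracycline. In this model the tetracycline-controlled activator is driven by elements of the SCL gene, which is active in blood stem and progenitor cells. The control mice were therefore leukemic too, and the groups differ by labels in Mir142 alone. Per the study's methods the mice were of both sexes and young adults. Mir142 was deleted in the whole animal, so the T cells of BC CML mice both lacked the miRNA and developed in a body that lacked it. From each mouse 200000 T cells were sorted (the labels name no further gate), and 1 library was sequenced in paired reads. The column names carry 1 number shared by all CP CML mice and another shared by all BC CML mice, whose meaning is not given in the sources used here; whatever it marks cannot be told apart from genotype.

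T cells that have met antigen differ from naive T cells in their surface and in their cytoskeleton. CD44, the receptor for hyaluronan, rises on activation and stays high on memory cells. Ly6A (Sca-1) and Ly6C are small proteins held in the outer membrane by a lipid anchor and increase on activated and memory CD8 T cells. The S100 proteins are small calcium sensors, annexin A2 binds membranes in the presence of calcium, and S100A10 pairs with annexin A2 into a complex at the inner face of the membrane. Galectin-1 (Lgals1) binds galactose-bearing sugars, vimentin (Vim) builds intermediate filaments, and Crip1 is a small LIM-domain protein. None of the 10 is particular to T cells, and monocytes and granulocytes express most of them strongly.

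The deleted miRNA gives rise to a pair of mature strands. They are shown because a loss of Mir142 would act first on transcripts that match their seeds, bases 2 to 8, which are in capitals (RefSeq, GRCm38.p6, the plus strand of chromosome 11).
mmu-miR-142a-5p (chr11:87756867-87756887): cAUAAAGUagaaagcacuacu
mmu-miR-142a-3p (chr11:87756903-87756925): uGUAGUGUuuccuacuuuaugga
The longest 3′UTR of each gene in GENCODE vM21, an annotation of the same build, was searched for matches of 7 and 8 bases. Those of 7 bases match seed bases 2 to 8, or bases 2 to 7 followed by an A, and those of 8 bases do both. No 3′UTR of the 10 held a match to miR-142a-3p (the 8-base match is ACACTACA), and none held the 8-base match to miR-142a-5p, ACTTTATA. Matches of 7 bases to miR-142a-5p were found in 3 of the 10: Cd44 held 3, and Ly6a and Ly6c2 held 1 each. Only the second match of Cd44, ACTTTAT, covers seed bases 2 to 8. The others, CTTTATA, match bases 2 to 7 and end in an A. The site of Ly6a and that of Ly6c2 lie at nearly the same distance from the start of the 3′UTR, at bases 134 to 140 and 135 to 141, and Ly6c1, the neighbour of Ly6c2, has it too. The windows of 30 bases are shown 5′ to 3′ on the transcribed strand, with the match in capitals, because these are the only matches of this kind in the 3′UTRs of the 10 genes.
Cd44, first match (chr2:102813620-102813649, minus strand): ttacatactctCTTTATAgactcccttctg
Cd44, second match (chr2:102813429-102813458, minus strand): ttttttaggttACTTTATcagaagcataac
Cd44, last match (chr2:102811745-102811774, minus strand): cctttaaaaatCTTTATAttgacatccata
Ly6a (chr15:74995110-74995139, minus strand): ccatgttttgcCTTTATAgcccctgctggg
Ly6c2 (chr15:75108390-75108419, minus strand): ccctgtttcacCTTTATAgcccctgctggg
Ly6c1 (chr15:75045249-75045278, minus strand): ccctgtttcacCTTTATAgcccctgctggg
The window of Ly6c1 is the same as that of Ly6c2 in every base. Among tested genes whose 3′UTR had a like length, 39.8% of 1870 held a match to miR-142a-5p for Cd44, whose 3′UTR has 2992 bases, 6.72% of 1146 for Ly6a and 6.38% of 1129 for Ly6c2. The 3′UTRs of the other 7 genes have between 92 bases (S100a6) and 342 bases (Vim) and held no match. A match is a string of letters, and whether it is bound was not measured.

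Mir142 itself, as the check of the labels, had 302 to 650 reads in the CP CML libraries and 0 reads in all 6 BC CML libraries. The libraries held 15703702 to 19914531 reads in CP CML and 16145537 to 19399720 reads in BC CML, and a library had between 321 and 22716 reads on any one of the 10 genes. The median coefficient of variation between mice over all tested genes was 8.89% in CP CML and 9.31% in BC CML. T cell identity genes were high in both groups: Cd3e, a chain of the T cell receptor complex, was at 404 CPM (counts scaled to a common library size with TMM factors) in CP CML and 410 CPM in BC CML. RNA of other cells was present as well. The summed level of 18 myeloid genes ranged from 89.2 to 751 CPM in CP CML and from 884 to 2305 CPM in BC CML, and 16 of the 18 were higher in BC CML and none lower. None of the 18 was at 0 in every library. The 7 B cell genes summed to 56.5 to 169 CPM in CP CML and 99.2 to 496 CPM in BC CML (6 higher, none lower), and 5 NK receptor genes to 56.9 to 77.3 CPM and 176 to 299 CPM (4 of the 4 tested higher, with Klra4 at 0 in every library). Stromal and endothelial genes summed to 145 to 181 CPM and 133 to 184 CPM, with none of 3 tested genes called. Erythroid genes (2 of 5 tested called higher) summed to 15.4 to 63.0 CPM and 42.7 to 72.7 CPM, dendritic cell genes (3 of 5 higher) to 6.53 to 43.5 CPM and 23.2 to 139 CPM, and platelet genes (1 tested, lower) to 3.31 to 5.82 CPM and 2.55 to 6.02 CPM. In such bulk samples, fewer cells of a type and less RNA per cell cannot be told apart.

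Of the 10 genes, 6 passed edgeR's quasi-likelihood test as higher in BC CML (adjusted p-value below 0.05, Benjamini-Hochberg over 12248 genes), 1 was lower and 3 were not called. Over all tested genes, 32.6% were called higher and 32.7% lower. The BC CML mice lay above all CP CML mice in 4 of the 10 genes, which 19.3% of tested genes did, and below them in 1 of the 10, which 17.6% did, while the groups overlapped in the other 5. The median log2 fold change was 0.34 over the 10 genes and −0.01 over all tested genes. A log2 fold change of at least 1 was seen in 3 of the 10 (Ly6c2, Vim and Anxa2) and in 10.1% of tested genes. The 10 genes together took 1160 to 1373 CPM in the CP CML libraries and 2041 to 2682 CPM in the BC CML libraries, with no overlap. Vim and Ly6c2 made up most of that gap: their means went from 397 to 933 CPM and from 86.6 to 402 CPM.

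**Figure D1:**
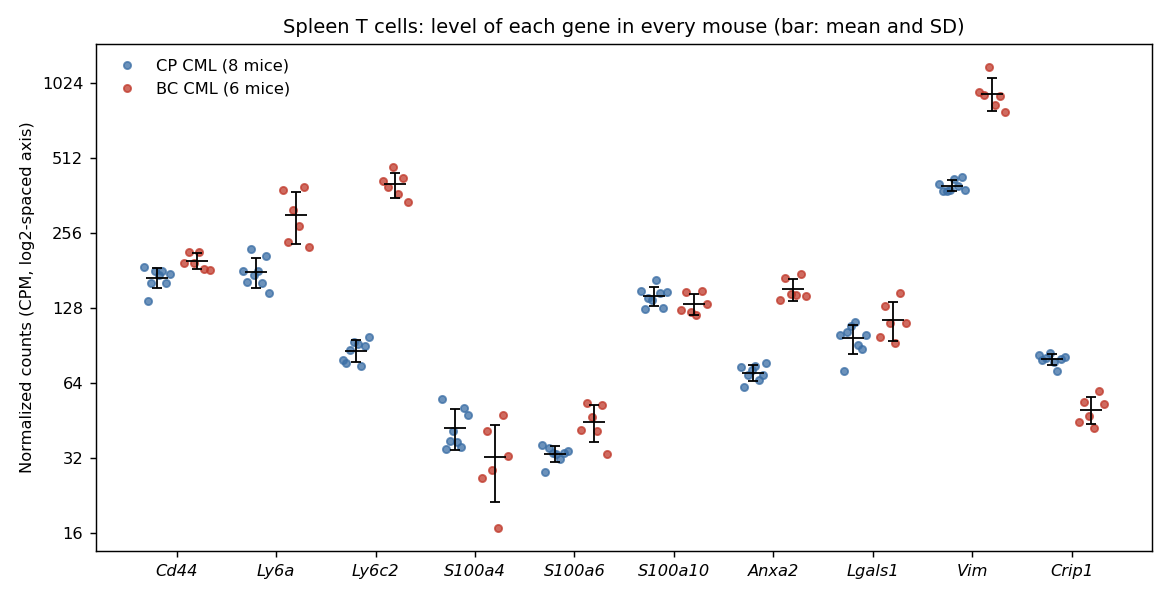
Level of each of the 10 genes in every mouse, in CPM on a log2-spaced axis, with 8 CP CML mice in blue and 6 BC CML mice in red; the black bars give the mean and SD of each group. The red points stand clear above the blue ones for Ly6a, Ly6c2, Anxa2 and Vim and clear below for Crip1, while the groups overlap for the other 5 genes.

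The surface receptor Cd44 rose only slightly. The gene spans 102811142 to 102901665 on chromosome 2 of mm10 (minus strand), and its 3 seed matches are shown above. In CP CML its lowest, median and highest levels were 137, 175 and 187 CPM, and in BC CML they were 183, 195 and 216 CPM. All 6 BC CML mice lay above the CP CML median and 4 lay above every CP CML mouse, so the groups touched at their edges. The mean rose from 169.6 ± 15.8 CPM (SD, n = 8) to 198.1 ± 14.4 CPM (SD, n = 6), a log2 fold change of 0.22 ± 0.06 (SE) with an adjusted p-value of 0.00386 in edgeR's quasi-likelihood test. One CP CML mouse, replicate 2, was the lowest by some distance, and without it the log2 fold change was 0.18 with an adjusted p-value of 0.00359 in the same test. Cd44 was at 25.1 and 29.3 FPKM (CPM per kilobase of the deposited gene length), the least abundant of the 10 per length in BC CML.

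Of 8 tested genes of a list around CD44 (its membrane and cytoskeletal partners, its ligands, enzymes and another receptor of hyaluronan, and the scaffold Ahnak), 4 were higher and 2 lower. Ezr and Msn encode ezrin and moesin, which tie the tail of CD44 to actin, and both fell, by 0.28 and 0.13 on the log2 scale (adjusted p-values 8.86e-06 and 0.0037 in edgeR's quasi-likelihood test). Rdx, the third gene of that family, rose by 0.16 (adjusted p-value 0.00171 in the same test). Ahnak, a giant scaffold protein that binds S100A10 with annexin A2, rose from 942 to 1598 CPM, a log2 fold change of 0.76 ± 0.13 (SE), and every BC CML mouse lay above every CP CML mouse. Spp1, which encodes osteopontin, a secreted ligand of CD44, was nearly silent in CP CML at 7 to 14 reads and had 183 to 529 reads in BC CML, a change of 4.99 on the log2 scale (adjusted p-value 1.63e-11 in the same test). The call of Cd74, the MHC class II invariant chain and a partner of CD44, at 1.89 on the log2 scale, stood beside the B cell and myeloid genes given above, which also make it; their part in it was not tested.

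Both Ly6 genes rose in every BC CML mouse over every CP CML mouse. Ly6a and Ly6c2 lie 110130 bases apart on the minus strand of chromosome 15, with Ly6c1 as the only gene listed between them. Ly6a, from 74994877 to 74998031, was at 147, 177 and 222 CPM (lowest, median, highest) in CP CML and at 226, 295 and 393 CPM in BC CML. The groups met without overlap, and the BC CML mice were spread widely, with replicates 1 and 5 high and replicates 2 and 6 low. The mean rose from 179.6 ± 24.7 to 304.6 ± 71.9 CPM (SD, n = 8 and 6), a log2 fold change of 0.76 ± 0.13 (SE; adjusted p-value 0.000159 in edgeR's quasi-likelihood test). 

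Ly6c2, from 75108161 to 75111949, changed most of all 10. It was at 74.8, 88.7 and 98.0 CPM in CP CML and at 342, 403 and 474 CPM in BC CML. The lowest BC CML mouse stood far above the highest CP CML mouse. This was a log2 fold change of 2.22 ± 0.07 (SE), or 4.65-fold, with an adjusted p-value of 1.68e-13 in edgeR's quasi-likelihood test. Per length, Ly6c2 moved from rank 419 to rank 88 among the tested genes, from 109 to 505 FPKM, and in BC CML it was about as abundant as Vim at 511 FPKM.

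Ly6c1, the next gene on the chromosome at a gap of 59324 bases, encodes the other form of Ly6C and went the opposite way. It was at 18.6, 24.3 and 28.3 CPM in CP CML and at 3.14, 3.86 and 5.74 CPM in BC CML, which in BC CML was 56 to 106 reads. The groups were far apart. Ly6c1 had a log2 fold change of −2.51 ± 0.14 (SE; adjusted p-value 5.5e-11 in edgeR's quasi-likelihood test). Within a library, a ratio of reads does not depend on scaling. The ratio of Ly6c2 to Ly6c1 reads was 3.07 to 4.84 in CP CML and 73.8 to 116 in BC CML, 26.7-fold higher (exact two-sided permutation test of the mice between groups, p = 0.000333, which is the smallest it can give; adjusted p = 0.000333 over 5 ratios). Every BC CML mouse lay above the CP CML range in Ly6c2 and below it in Ly6c1. Their ratio therefore had to separate, and its p adds nothing to the results of the single genes. The ratio of Ly6c2 to Ly6a, between 0.391 and 0.667 in CP CML and between 1.08 and 1.66 in BC CML, also rose without overlap, by 1.47 on the log2 scale with the same p.

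The transcripts of these neighbours are close copies. The longest coding transcripts of Ly6c2 (822 bases) and Ly6c1 (844 bases) in GENCODE vM21 were identical at 802 of 822 aligned bases (97.6%), and 112 of the 722 windows of read length in Ly6c2 (15.5%) also occur in Ly6c1. A read from such a window could be given to either gene or dropped, so both levels and their ratio are uncertain. The share of such windows does not bound the error. In BC CML the median was 72 reads for Ly6c1 and 7242 for Ly6c2, so a small share of misplaced Ly6c2 reads would weigh heavily on Ly6c1. Whether the mice of the groups differ in sequence at this locus was not tested. The sum of Ly6c1 and Ly6c2 still rose, since Ly6c1 lost far fewer reads than Ly6c2 gained.

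Upstream of the gene the pair differ more than in the transcript. The stretches of the 2 promoters that align are shown because the neighbours went opposite ways (RefSeq, GRCm38.p6, minus strand), with every base that differs or has no partner in capitals.
Ly6c2 (chr15:75111943-75112221): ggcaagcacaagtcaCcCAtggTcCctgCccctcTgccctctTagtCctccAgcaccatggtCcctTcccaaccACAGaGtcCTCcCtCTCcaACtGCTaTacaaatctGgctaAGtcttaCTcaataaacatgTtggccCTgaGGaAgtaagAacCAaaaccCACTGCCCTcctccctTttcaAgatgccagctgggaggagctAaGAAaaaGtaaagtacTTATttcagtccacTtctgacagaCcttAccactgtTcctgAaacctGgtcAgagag
Ly6c1 (chr15:75048788-75049056): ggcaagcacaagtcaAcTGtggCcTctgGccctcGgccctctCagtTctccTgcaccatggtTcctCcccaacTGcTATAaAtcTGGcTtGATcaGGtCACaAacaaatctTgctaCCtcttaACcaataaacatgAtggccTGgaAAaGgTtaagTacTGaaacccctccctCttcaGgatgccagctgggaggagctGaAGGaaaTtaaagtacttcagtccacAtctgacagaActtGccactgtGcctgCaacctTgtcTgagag
Of 266 aligned bases, 208 (78.2%) were identical. RefSeq lists more than 1 start for each gene, and the first was used, so the stretches sit at somewhat different distances from the starts. Promoters of 7 of the 10 genes were in the table (not Ly6a, S100a10 and Lgals1). Of 6 motifs searched on both strands in 300 bases, the CACCC box (CACCC) was in the promoters of Vim, Anxa2, S100a4, Crip1 and Ly6c2, and in 56.7% of 27025 promoters. A TATA box (TATAAA) was in those of Vim, Anxa2 and S100a4 and in 14.2% of all, and the AP-1 motif TGANTCA was in that of Anxa2 and in 7.93% of all. The ETS motif GGAAGTG was in those of Vim and S100a4 and in 11.2% of all. The STAT motif TTCNNNGAA (8.47% of all) and the T-box motif AGGTGTGA (1.27% of all) were in none of the 7. Crip1, which fell, held the CACCC box as did Vim and Anxa2, which rose.

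In the Ly6 family as a whole, 7 genes were tested, 6 were higher and only Ly6c1 was lower. Ly6e, broadly expressed in lymphocytes, rose 1.26-fold from a mean of 952 CPM, a log2 fold change of 0.33 (adjusted p-value 4.18e-06 in edgeR's quasi-likelihood test). Ly6d, a marker of B lineage cells, rose by 2.43 and Ly6g, a marker of neutrophils, by 2.94, both from levels under 10 CPM. Ly6g is one of the myeloid genes above, and Ly6d was not among the B cell genes. The part of B cell and myeloid RNA in the Ly6 family's counts was not tested.

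**Figure D2:**
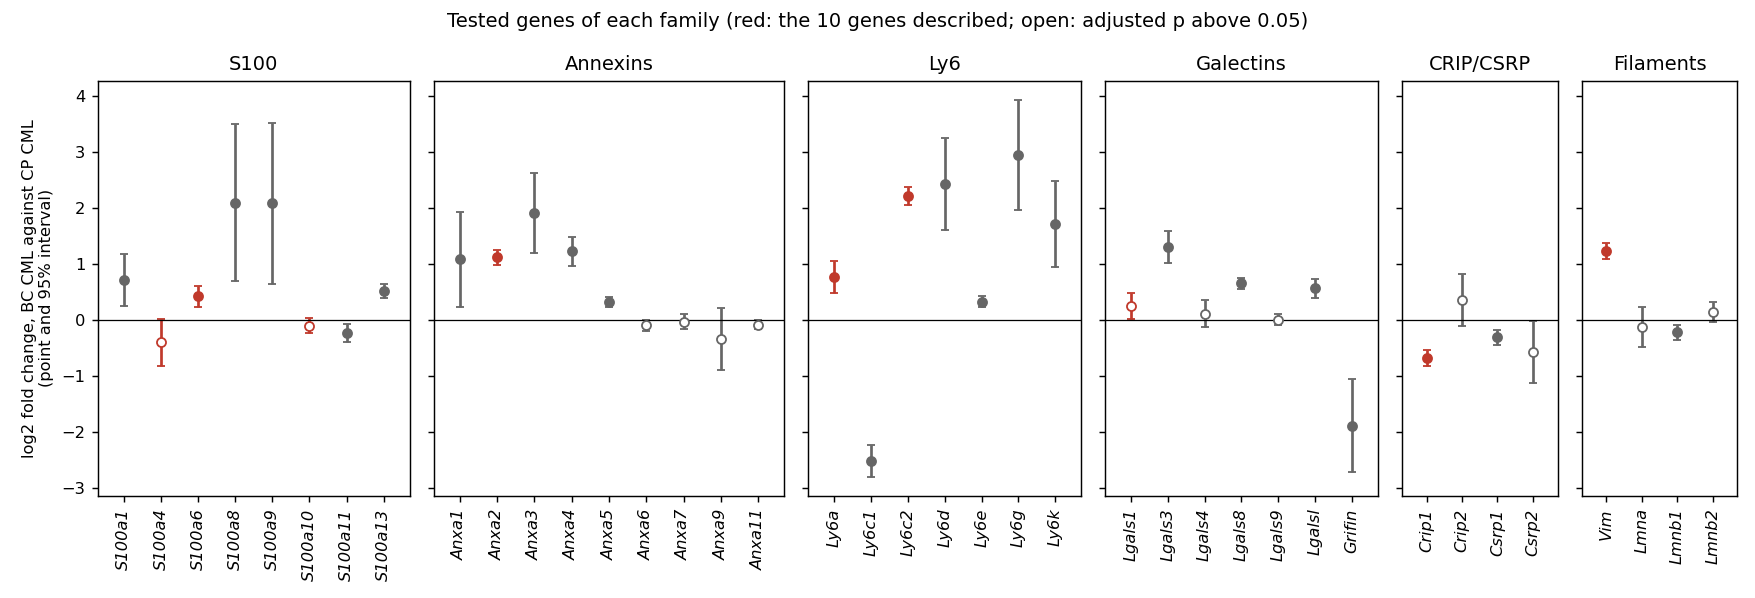
log2 fold change of each tested gene of 6 families, BC CML against CP CML, with its 95% interval; the 10 genes described are in red and open circles mark genes that were not called. Ly6c2 and Ly6c1 stand on opposite sides of 0 in the Ly6 panel, at 2.22 and −2.51, and S100a10 sits near 0 while Anxa2 stands at 1.12.

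The S100 genes did not move as a group. On chromosome 3 (plus strand), S100a4 spans 90603770 to 90606045 and S100a6 spans 90612894 to 90614414, with 6849 bases between them. S100a4, also known for binding non-muscle myosin, was at 34.7, 39.2 and 55.3 CPM in CP CML and at 16.8, 30.7 and 47.9 CPM in BC CML. The groups overlapped, 4 of 6 BC CML mice lay below every CP CML mouse, and replicates 2 and 5 lay among them. Its log2 fold change was −0.40 ± 0.20 (SE; 95% interval −0.82 to 0.03) and was not called (adjusted p-value 0.0914 in edgeR's quasi-likelihood test). Its coefficient of variation was 34.0% in BC CML and 18.4% in CP CML, the largest of the 10 genes in both groups. Without BC CML replicate 5 it was called, at −0.55 with an adjusted p-value of 0.019 in the same test, and without BC CML replicate 4 the value was −0.26. GENCODE also places a second gene model, Gm42674, over S100a4 on the same strand, and 202 of 398 windows of S100a4 (50.8%) belong to both; whether the authors' annotation held it is not given in the sources used here.

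S100a6, which binds annexins and other partners when calcium is high, went up. It was at 28.1, 33.5 and 36.2 CPM in CP CML and at 33.1, 44.2 and 53.1 CPM in BC CML. Above every CP CML mouse lay 5 of the 6 BC CML mice, and replicate 6 lay among them. The change was 0.43 ± 0.09 on the log2 scale (SE; adjusted p-value 0.000475 in edgeR's quasi-likelihood test). The balance of the neighbours S100a4 and S100a6 moved, although S100a4 alone was not called: the ratio of S100a4 to S100a6 reads was 1.06 to 1.53 in CP CML and 0.409 to 0.988 in BC CML. No mouse of one group fell in the range of the other, and the ratio was 1.82-fold lower in BC CML (exact two-sided permutation test, p = 0.000333, the smallest possible; adjusted p = 0.000333 over 5 ratios).

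S100a10 and Anxa2 encode the subunits of one complex and parted clearly. S100a10, which spans 93555117 to 93564645 on chromosome 3 (plus strand), was at 127, 144 and 166 CPM in CP CML and at 121, 129 and 150 CPM in BC CML. The groups overlapped, and 3 of the 6 BC CML mice lay below every CP CML mouse. Its log2 fold change was −0.10 ± 0.06 (SE; 95% interval −0.24 to 0.03; adjusted p-value 0.171 in edgeR's quasi-likelihood test), so a rise of more than 0.03 lies outside the interval. 

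Anxa2, which spans 69453683 to 69491785 on chromosome 9 (plus strand), was at 61.8, 70.7 and 76.9 CPM in CP CML and at 138, 145 and 176 CPM in BC CML. The ranges of the groups lay far apart. Anxa2 had a log2 fold change of 1.12 ± 0.06 (SE), or 2.17-fold, with an adjusted p-value of 3.65e-11 in edgeR's quasi-likelihood test. There were 1.87 to 2.24 S100a10 reads for each Anxa2 read in CP CML (median 2.04) and 0.830 to 0.924 in BC CML (median 0.867). The ratio was 2.32-fold lower in BC CML (exact two-sided permutation test, p = 0.000333, the smallest possible; adjusted p = 0.000333 over 5 ratios). It was also the tightest of the 5 ratios, with an SD of 0.10 in CP CML and 0.06 in BC CML on the log2 scale. Per length, S100a10 was at 222 and 206 FPKM and Anxa2 at 27.4 and 59.4 FPKM, so S100a10 stayed the more abundant transcript of the pair in both groups.

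**Figure D3:**
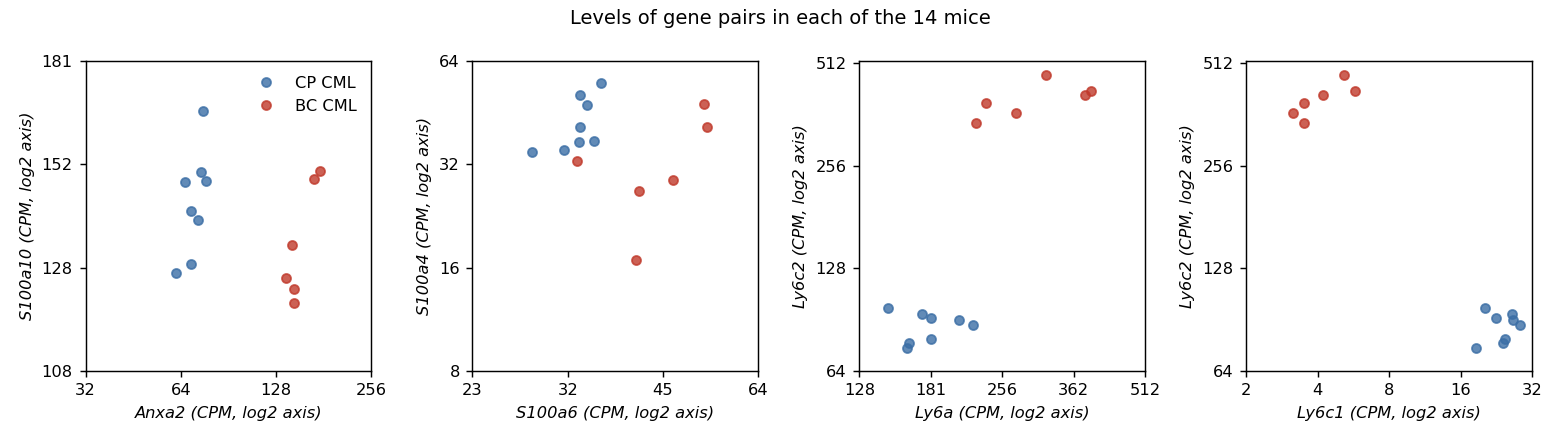
Levels of 4 gene pairs in each of the 14 mice, in CPM on log2-spaced axes, CP CML in blue and BC CML in red. The clouds separate along Anxa2 but not along S100a10, and for Ly6c2 against Ly6c1 they sit in opposite corners.

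Among the other S100 genes, S100a13 rose by 0.52 (adjusted p-value 6.08e-07 in edgeR's quasi-likelihood test) without overlap and S100a11 fell by 0.23 (adjusted p-value 0.0162 in the same test). S100a8 and S100a9, the subunits of calprotectin of neutrophils and monocytes, rose by 2.10 and 2.08, at 41 to 1858 and 40 to 2645 reads in CP CML and 2197 to 7195 and 3186 to 9443 reads in BC CML; they are among the 18 myeloid genes. In all, 8 S100 genes were tested, with 5 higher and 1 lower. Of 9 annexins tested, 5 were higher and none lower, where 32.6% of all tested genes were called higher and 32.7% lower. Beside Anxa2, Anxa4 rose by 1.22 and Anxa5, known for binding exposed phosphatidylserine, by 0.32, both without overlap. Anxa1 and Anxa3 rose by 1.08 and 1.91 with overlap. Among CP CML mice Anxa1 ranged from 3.62 to 22.8 CPM and Anxa3 from 0.664 to 3.08 CPM. The part of myeloid RNA in these 2 genes was not tested. Anxa6, the most abundant annexin here in CPM, was at 565 and 529 CPM and was not called (adjusted p-value 0.0934 in the same test).

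Galectin-1 missed the threshold. Lgals1 spans 78926725 to 78930465 on chromosome 15 (plus strand). It was at 71.5, 100.04 and 112 CPM in CP CML and at 92.6, 112 and 147 CPM in BC CML. The groups overlapped, and 2 of the 6 BC CML mice lay above every CP CML mouse. Lgals1 had a log2 fold change of 0.25 ± 0.11 (SE; 95% interval 0.02 to 0.49) with an adjusted p-value of 0.0582 in edgeR's quasi-likelihood test. The likelihood ratio test of edgeR gave an adjusted p-value of 0.0407 and DESeq2 gave 0.0283, so the call depends on the tool. It was also called without CP CML replicate 4 or 5 or BC CML replicate 1 or 4 (0.28 to 0.31). Without BC CML replicate 5 the value fell to 0.17.

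Other galectins rose more clearly. Lgals3, galectin-3, which activated T cells and macrophages make, rose from 12.13 to 30.01 CPM, by 1.31 on the log2 scale (adjusted p-value 2.62e-07 in edgeR's quasi-likelihood test), and Lgals8 from 87.3 to 137 CPM, by 0.65 (adjusted p-value 8.39e-10 in the same test). The groups did not overlap in either. Lgals9, a ligand of TIM-3, was at 127.98 and 128.89 CPM and was not called. Of 7 galectin family genes tested, 3 were higher and 1, Grifin, at under 25 reads in every library, was lower.

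Vimentin rose strongly. Vim, which spans 13574311 to 13582826 on chromosome 2 (plus strand), was at 379, 390 and 429 CPM in CP CML and at 784, 915 and 1192 CPM in BC CML. The groups were far apart, with BC CML replicate 3 the highest and replicate 6 the lowest of its group. The log2 fold change was 1.23 ± 0.07 (SE), or 2.35-fold, with an adjusted p-value of 1.13e-10 in edgeR's quasi-likelihood test. In CP CML the mice differed little, with a coefficient of variation of 5.11%, against 15.0% in BC CML. The nuclear lamins, its relatives, did not rise with it: Lmnb1 fell by 0.22 (adjusted p-value 0.00505 in the same test), Lmna was at −0.12 and Lmnb2 at 0.14, neither called.

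Crip1 was the 1 gene of the 10 called lower with all mice included. The gene spans 113152012 to 113153879 on chromosome 12 (plus strand). It was at 71.8, 80.5 and 84.3 CPM in CP CML and at 42.3, 50.02 and 59.3 CPM in BC CML. All BC CML mice lay under the lowest CP CML mouse. Crip1 had a log2 fold change of −0.68 ± 0.06 (SE), or 1.60-fold lower, with an adjusted p-value of 5.62e-08 in edgeR's quasi-likelihood test. Of the 4 tested genes of its LIM-domain family, Csrp1 also fell, by 0.31 (adjusted p-value 0.000376 in the same test), and none rose.

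Ordered by level per length, the 10 genes stood differently in the groups. In CP CML the most abundant were S100a10 (222 FPKM), Vim (218 FPKM), Crip1 (181 FPKM) and Ly6a (180 FPKM). The ranges over mice of S100a10 (196 to 257 FPKM) and Vim (208 to 235 FPKM) overlapped, and so did those of Crip1 (162 to 191 FPKM) and Ly6a (147 to 223 FPKM), while Crip1 lay below Vim in every mouse. They were followed by Lgals1 at 122, Ly6c2 at 109, S100a4 at 85.6, S100a6 at 46.4, Anxa2 at 27.4 and Cd44 at 25.1 FPKM. Among these the ranges of Lgals1 and Ly6c2, of Ly6c2 and S100a4, and of Anxa2 and Cd44 overlapped, and the other neighbours in the order stood apart. In BC CML Vim (511 FPKM) and Ly6c2 (505 FPKM) led with overlapping ranges, then came Ly6a at 305, S100a10 at 206, Lgals1 at 145, Crip1 at 113, S100a4 at 65.1, S100a6 at 62.4, Anxa2 at 59.4 and Cd44 at 29.3 FPKM. Neighbours in this order overlapped in their ranges except for Ly6c2 with Ly6a, S100a10 with Lgals1, and Anxa2 with Cd44. The gene length deposited with the counts was used, and it may be longer than the transcript in use.

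Beside these genes stand 22 others known from antigen-experienced T cells, of which 13 were higher, 5 lower and 4 not called (median log2 fold change 0.41). The receptor chain Il2rb, which conveys IL-2 and IL-15, rose by 0.88, the death ligand Fasl by 1.55 and the integrin chain Itgb1 by 0.77, all without overlap of the groups. Lsp1, an actin-binding protein of leukocytes, fell by 0.48, Emp3, a membrane protein, by 0.43, and the IL-18 receptor chains Il18r1 and Il18rap by 0.32 and 0.48. These counts stand beside the 32.6% of all tested genes called higher and the 32.7% called lower.

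Of 14 genes of naive T cells, 11 were lower, 1 was higher and 2 were not called (median −0.67). Actn1, an actin crosslinker, fell by 1.96, the homing receptor Ccr7 by 1.05, the IL-7 receptor chain Il7r by 1.00 and the transcription factor Tcf7 by 0.67, all without overlap. Satb1, a chromatin organiser, rose by 0.14 (adjusted p-value 0.0278 in edgeR's quasi-likelihood test). T cell identity genes moved too: Cd4 fell by 0.73 and Cd8a rose by 0.87, while Cd8b1 at 0.07 and Cd3e at 0.02 were not called. Ly6C is known to be common on CD8 memory cells, and shares of T cell subsets, which the study followed by other methods, are not given by these counts, so their part in these differences was not tested.

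**Figure D4:**
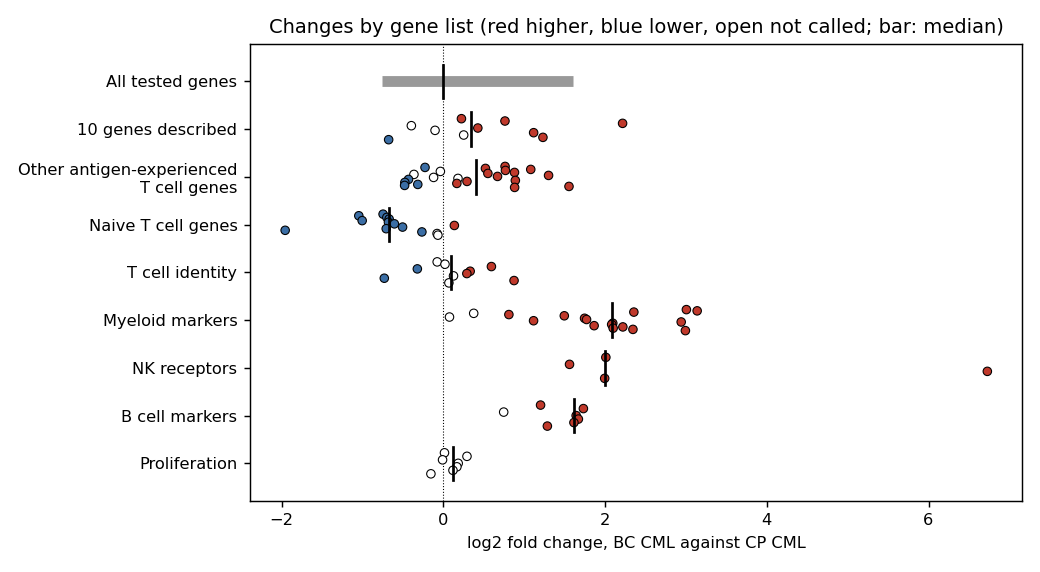
log2 fold changes of the tested genes of 9 groups of genes, BC CML against CP CML; red is higher, blue lower, open not called, the black bar is the median, and the grey bar spans the 5th to the 95th percentile of all tested genes. The 10 genes described spread to both sides of 0 with a median of 0.34, naive T cell genes lie mostly below 0 with a median of −0.67, and myeloid markers lie above it with a median of 2.09.

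Monocytes and granulocytes carry Vim, Anxa2, Ly6c2, S100a4, S100a6 and Crip1, and their markers were higher in BC CML. The values of the 10 genes were therefore also taken from a fit with the myeloid marker score as a covariate. In it the log2 fold change was 2.31 for Ly6c2, 1.30 for Vim, 1.07 for Anxa2, 1.02 for Ly6a, 0.49 for S100a6, 0.28 for Cd44 and −0.71 for Crip1, and all 7 remained called. The 3 genes that were not called stayed so, at −0.68 for S100a4, −0.18 for S100a10 and 0.32 for Lgals1, of which S100a4 and S100a10 moved by over 1.5 times from −0.40 and −0.10. Anxa2 was thus somewhat nearer to 0 than its 1.12 without the covariate, and the other 6 of the 7 called genes were farther from 0 than without it. The summed myeloid levels of the groups did not overlap, at most 751 CPM in CP CML and at least 884 CPM in BC CML. Myeloid level thus ran with genotype, so this fit cannot separate the one from the other. Beyond these values, the part of myeloid RNA in the 10 genes was not tested. The NK receptor genes moved with the groups as well; no fit took account of them, and their part was not tested. Ncr1, Klrb1c and Klre1 rose by 2.01, 1.56 and 2.00 on the log2 scale. Klra8, an activating receptor, stood apart from them with 0 to 5 reads in CP CML and 185 to 326 reads in BC CML, which is 6.73 on the log2 scale. Whether the groups differ in sequence at Klra8 was not tested either.

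Within the groups, 6 of the 10 genes (Anxa2, Lgals1, S100a4, Crip1, S100a10 and S100a6) varied together from mouse to mouse in some of their pairs, and Cd44, Ly6a, Ly6c2 and Vim were in no pair that passed. Deviations of log2 CPM from the group mean were correlated over the 14 mice for all 45 pairs, with p from 100000 permutations within the groups, and 5 pairs passed at an adjusted p below 0.05 on Pearson's r, of which 4 also did on Spearman's rho. The largest was Anxa2 with Lgals1 (r = 0.867, rho = 0.846; permutation p = 0.00042 and 0.00107, adjusted p = 0.0189 and 0.0162), and r was 0.798 without the 2 mice farthest from the median of Anxa2. S100a4 with Crip1 followed (r = 0.855, rho = 0.846; permutation p = 0.00129 and 0.00034, adjusted p = 0.0193 and 0.0153), with r = 0.667 without the 2 farthest mice. It was 0.946 among the BC CML mice and 0.535 among the CP CML mice. S100a10 with Lgals1 (r = 0.826, rho = 0.82; permutation p = 0.00089 and 0.00108, adjusted p = 0.0193 and 0.0162; r = 0.749 without 2 mice) and S100a6 with Anxa2 (r = 0.74, rho = 0.789; permutation p = 0.00399 and 0.00222, adjusted p = 0.0359 and 0.025; r = 0.772 without 2 mice) completed the 4.

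The complex of S100A10 and annexin A2 gives the fifth pair. Its genes moved together within groups (r = 0.786, rho = 0.714; permutation p = 0.00274 and 0.0079, adjusted p = 0.0308 and 0.0508; r = 0.716 without 2 mice), although between the groups one rose and the other was not called. Ly6c2 and Vim both rose between the groups, and as a pair did not pass within them (r = 0.624, rho = 0.464; permutation p = 0.0241 and 0.119, adjusted p = 0.0988 and 0.28; r = 0.57 without 2 mice). Its r was 0.942 among the 6 BC CML mice and 0.058 among the 8 CP CML mice, and the difference was not tested. All these values come from the same 14 libraries, so a property of a library enters every gene of it. The mean deviation of the 7 proliferation genes was also correlated with these genes within the groups. Its r was 0.861 for Crip1, 0.759 for Lgals1, 0.712 for S100a4, 0.696 for Anxa2, 0.484 for S100a10 and 0.462 for S100a6. The part of proliferation in the pairs was not tested.

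**Figure D5:**
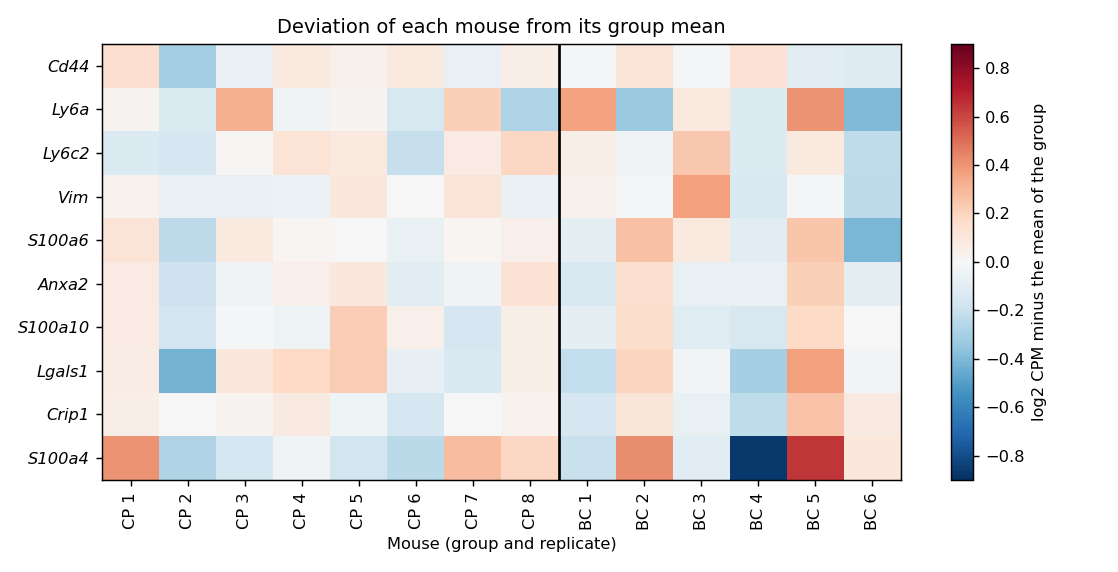
Deviation of each mouse from the mean of its group for the 10 genes, in log2 CPM, from blue (below) to red (above), with CP CML mice left of the line and BC CML mice right of it. BC CML replicate 5 is high and replicate 4 low in S100a4, Crip1 and Lgals1, and CP CML replicate 2 is below its group mean in all 10 genes.

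The mouse that stood highest in this pattern was BC CML replicate 5, at 0.64 for S100a4, 0.37 for Lgals1 and 0.26 for Crip1 above its group mean on the log2 scale, and the lowest in S100a4 was BC CML replicate 4, at −0.87. The column name of BC CML replicate 5 alone ends in the letters RP, whose meaning is not given in the sources used here. CP CML replicate 2 was at −0.42 for Lgals1 and −0.30 for Cd44. The mice of BC CML differed from each other more than those of CP CML in 9 of the 10 genes by coefficient of variation, as did 52.3% of tested genes; Cd44 was the exception. Of 9151 genes with an average log2 CPM of at least 3, the 5 whose deviations were most like the mean standardised deviation of the 10 over the 14 mice were Uhrf1 (r = 0.89), Lig1 (0.889), Nans (0.856), Ssna1 (0.837) and Chaf1a (0.835). Uhrf1, Lig1 and Chaf1a act in copying DNA and its chromatin, Nans makes sialic acid, and Ssna1 sits on microtubules. They were picked for that likeness, so no test is given. Between the groups 4 of these 5 were not called, and Nans rose by 0.33. The 7 proliferation genes summed to 420 to 580 CPM in CP CML and 423 to 790 CPM in BC CML, highest in BC CML replicate 5, and none of the 7 was called between the groups.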

How the data were processed

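RNA of sorted spleen T cells was sequenced from 14 mice, 1 library each. The authors trimmed the reads (Trimmomatic, FASTP), aligned them to mm10 (STAR 2.6.0) and deposited raw HTSeq 0.11.1 counts per gene; the annotation and strand setting are not given in the sources used here. Other experiments of the study were not analysed here.

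Counts were tested with edgeR 4.0.16 (R 4.3.3; filterByExpr, TMM, robust quasi-likelihood fit, no covariate, Benjamini-Hochberg at 0.05). CPM used TMM-scaled library sizes, with a prior count of 2 in log2 values and 0.5 added in ratios. Ratios within libraries were compared by an exact permutation test. Of the 5 ratios, 1 is not reported here. Mice are separate animals, and libraries of a group differed beyond sampling noise (chi-square per degree of freedom 2.99 to 21.6). On simulated counts of this comparison (12187 genes, 200 changed by 1 on the log2 scale), 180 were recovered with 9 other calls. In the data a far larger share was called (32.6% higher and 32.7% lower), so the simulation does not give the error rate of these calls. Also tried were DESeq2 1.42.0, the likelihood ratio test, other scaling and filters, a replicate block, a myeloid covariate and each sample left out. The 10 genes, the gene lists and the tests were chosen with earlier results of these data known. Named were the 10 genes, genes of their families, of the list around CD44 and of the experienced and naive T cell lists, defining markers, Mir142, and the 5 genes most alike within groups. Sequences came from RefSeq (GRCm38.p6) and GENCODE vM21; listed but not found by symbol were S100a7l2, Ly6g2, Ly6l, Ly6m, Lgals6, Hba-a1 and Hbb-bt.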

Additional observations from a re-analysis of the deposited data

Results flagged for a closer look

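Of 36 groups of values examined for a sample far from the others, 1 was set apart, where chance gives about 1.8. It was not one of the 10 genes but the total of reads of BC CML replicate 2, at 16145537 against 18319039 in the nearest library of its group, a gap of 0.668 of the group's range where the critical value is 0.625. CPM is scaled for this total, and without this mouse Cd44 was at 0.20, S100a4 at −0.47 and Lgals1 at 0.21 on the log2 scale.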

How the results depend on the processing

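Across 8 alternatives and 14 fits that each left out 1 mouse, no value for the 10 genes changed direction, nor did the 5 ratios under the 2 alternatives run for them (1 count added, and the block) and with a mouse left out, and 7 or 8 of the 10 genes were called. The number of genes called over the whole table was 5414 to 8719 under the alternatives (5414 with the myeloid score as a covariate, 8719 with no filter on low counts) and 7721 to 7966 with a mouse left out. Lgals1 was called by the likelihood ratio test (0.25, adjusted p-value 0.0407) and by DESeq2 (0.26, adjusted p-value 0.0283), and ranged from 0.17 to 0.31 with a mouse left out. S100a4 was called in 1 fit, without BC CML replicate 5 (−0.55, adjusted p-value 0.019, edgeR's quasi-likelihood test), which made 2 genes called lower. The adjusted p-value of Cd44 reached 0.0303 (with the block). The replicate numbers do not pair the mice, which are different animals: the deviations of same-numbered mice correlated by −0.273 to 0.356. With the replicate number as a block, 7280 genes and 7 of the 10 were called, and the ratios gave a paired p of 0.03125, the smallest that 6 pairs allow, in an exact test. With a mouse left out, the ratios kept their direction without overlap of the groups, at p = 0.000583 or 0.000777 (exact permutation test), the smallest that 13 mice allow, so these p-values say nothing of stability.

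The depth does not limit calls on these genes, which had at least 321 reads per library. The limits are the 6 BC CML mice, the makeup of the sorted cells, which these counts do not give, and the shared sequence of Ly6c1 and Ly6c2. The background of the mice was not checked, nor was their sequence at Ly6c1, Ly6c2 and Klra8. The unexplained number in the column names cannot be told apart from genotype.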
